A study of Mus musculus with 25 samples.

Results

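Gliogenic transcription factors are described here through 9 genes, Sox9, Sox2, Nfia, Nfib, Nfix, Zbtb20, Lhx2, Rorb and Nr2e1. They were chosen by gene symbol, and all 9 were found among the 54429 entries of the expression table. RNA was sequenced from cultured cortical astrocytes of C57BL/6J mice, which had been isolated on plates coated with an antibody to HepaCAM, an adhesion protein of the astrocyte surface. The 25 libraries fell into 9 groups. One experiment compared cells given an EGFR inhibitor on in vitro day 2 with cells given DMSO, the solvent (3 libraries each), and another compared a P53 inhibitor, also added on day 2, with its own DMSO control (3 each). In the next, HBEGF, a ligand of EGFR, was either added or withdrawn on the day the cells were prepared (2 libraries each). The last sampled cells on in vitro days 2, 7 and 14 (3 each). Inhibitor identity and dose, harvest day of treated cells, age of the mice and origin of the replicates are not given in these sources. The p-values thus cover no more than the spread among these libraries, and that spread may be technical.

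In the embryonic cortex, radial glia first make neurons and later turn to making astrocytes. Sox9 and the nuclear factor I proteins are known for this switch: Sox9 induces Nfia, and both bind genes that astrocytes later express. Nfib and Nfix are relatives of Nfia that bind the same palindromic DNA motif, and Zbtb20, a BTB domain zinc finger protein, is known to promote astrocyte formation. Sox2 maintains neural progenitors and stays on in astrocytes. Lhx2, a LIM homeodomain protein, and Nr2e1, an orphan nuclear receptor also called Tlx, are known for keeping progenitors from differentiating, and Rorb is an orphan nuclear receptor of cortical layer 4 neurons that astrocytes also express.

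The members lie on 8 chromosomes (GRCm38, GENCODE M21). Sox9 (ENSMUSG00000000567.5) is at chr11:112782224-112787760 and Sox2 (ENSMUSG00000074637.7) at chr3:34650405-34652461. Nfia (ENSMUSG00000028565.18) and Nfib (ENSMUSG00000008575.17) are on the same chromosome, at chr4:97772734-98118874 and chr4:82290173-82705750. Nfix (ENSMUSG00000001911.16) is at chr8:84699876-84800344, Zbtb20 (ENSMUSG00000022708.16) at chr16:42875881-43642602 and Lhx2 (ENSMUSG00000000247.11) at chr2:38339281-38369733. Rorb (ENSMUSG00000036192.15) is at chr19:18930605-19111196 and Nr2e1 (ENSMUSG00000019803.11) at chr10:42561963-42583632. Sox2 lies within the span of the noncoding gene Sox2ot on the same strand, with 0 exon bases in common. The exons of Nfix share 137 bases, 1.86% of their length, with G430095P16Rik on the opposite strand. Whether reads were counted by strand is not stated in these sources, so reads from such shared bases cannot be assigned to 1 gene.

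Promoter sequences in RefSeq (GRCm38.p6) matched 7 of the 9 members, all but Sox9 and Nfib, with 12 start sites in all. The 4 shown here set 3 members that rose with the EGFR inhibitor (Sox2, Lhx2 and Nr2e1) beside 1 that did not pass the test there (Rorb). Each run is the 250 bases before the start site, 5′ to 3′ on the strand of the gene. Capitals mark matches, on either strand, to the GC box GGGCGG, the ETS core CCGGAA or the cyclic AMP element TGACGTCA, and no 2 of the matches overlap.
Sox2, chr3:34649745-34649994, plus strand: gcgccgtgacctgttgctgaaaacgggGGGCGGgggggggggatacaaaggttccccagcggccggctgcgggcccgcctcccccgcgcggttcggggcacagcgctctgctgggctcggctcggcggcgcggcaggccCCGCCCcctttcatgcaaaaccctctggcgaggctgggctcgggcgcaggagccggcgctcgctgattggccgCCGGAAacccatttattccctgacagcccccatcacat
Lhx2, chr2:38339031-38339280, plus strand: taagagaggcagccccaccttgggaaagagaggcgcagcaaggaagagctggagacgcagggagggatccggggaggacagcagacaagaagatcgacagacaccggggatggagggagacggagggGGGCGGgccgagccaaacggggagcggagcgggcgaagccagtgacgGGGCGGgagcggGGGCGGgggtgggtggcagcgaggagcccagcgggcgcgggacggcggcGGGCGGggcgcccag
Nr2e1, chr10:42583591-42583840, minus strand: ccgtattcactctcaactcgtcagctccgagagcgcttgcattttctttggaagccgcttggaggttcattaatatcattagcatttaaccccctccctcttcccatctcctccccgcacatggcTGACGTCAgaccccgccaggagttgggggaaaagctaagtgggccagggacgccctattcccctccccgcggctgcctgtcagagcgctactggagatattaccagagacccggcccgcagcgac
Rorb, chr19:19111197-19111446, minus strand: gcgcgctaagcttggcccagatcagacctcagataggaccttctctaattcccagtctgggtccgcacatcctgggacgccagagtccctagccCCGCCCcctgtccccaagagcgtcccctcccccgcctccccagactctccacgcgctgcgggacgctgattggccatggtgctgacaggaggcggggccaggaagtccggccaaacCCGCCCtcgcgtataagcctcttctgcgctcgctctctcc
The Lhx2 window shown held 4 GC boxes, and the Sox2 and Rorb windows shown 2 each. Lhx2 and Rorb each had another window, not shown, without a GC box. Of the 12 member windows, 4 held a GC box, 1 the ETS core and 1 the cyclic AMP element. Among 32851 mouse promoter windows of this length the shares were 32.7%, 12% and 1.55%, so the share of member windows with a GC box was close to that of all windows. The sequence TTGGCA, a longer form of the NFI core TTGGC, was in 0 of the 12 member windows and in 12.3% of all windows. The shorter TTGGC was not counted, and it does occur, on either strand, in the Sox2, Lhx2 and Rorb windows shown. The SOX core ACAAT was in 3 of the 12, at Nfia, Nfix and Rorb, and in 27.7% of all. The AP-1 motif TGANTCA was in 2 of the 12 and in 6.75% of all. A match is a description of letters, not a measured binding site.

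All 9 members were expressed in every library, with the fewest reads at Nr2e1 (197 in 1 library) and the most at Zbtb20 (19952). The deposited unit is RPKM, reads per kilobase of gene, scaled to the reads counted in the library. The kilobases are those of the whole gene span, introns included, so long genes get low values: the span is 31.8 times the exon length at Nfia, 27.8 times at Nfib, 25 times at Zbtb20 and equal to it at Sox2. As deposited, the median over the 25 libraries ran from 43.8 RPKM at Sox9 and 31 at Sox2 to 1.29 at Zbtb20 and 1.19 at Rorb. Per kilobase of exon the order was different. Nfia had the highest median, 70.9, followed by Sox9 at 58.6, Nfib at 43.4, Nfix at 34.4, Zbtb20 at 32.2 and Sox2 at 31, with Lhx2 (22.9), Rorb (19.3) and Nr2e1 (18.6) lowest. Members are therefore compared with each other only per kilobase of exon, and all values within a member below are deposited RPKM. The exon values assume that the counted reads came from exons, which was not tested. If reads in introns were counted too, members with long introns are set too high in this order.

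**Figure D1:**
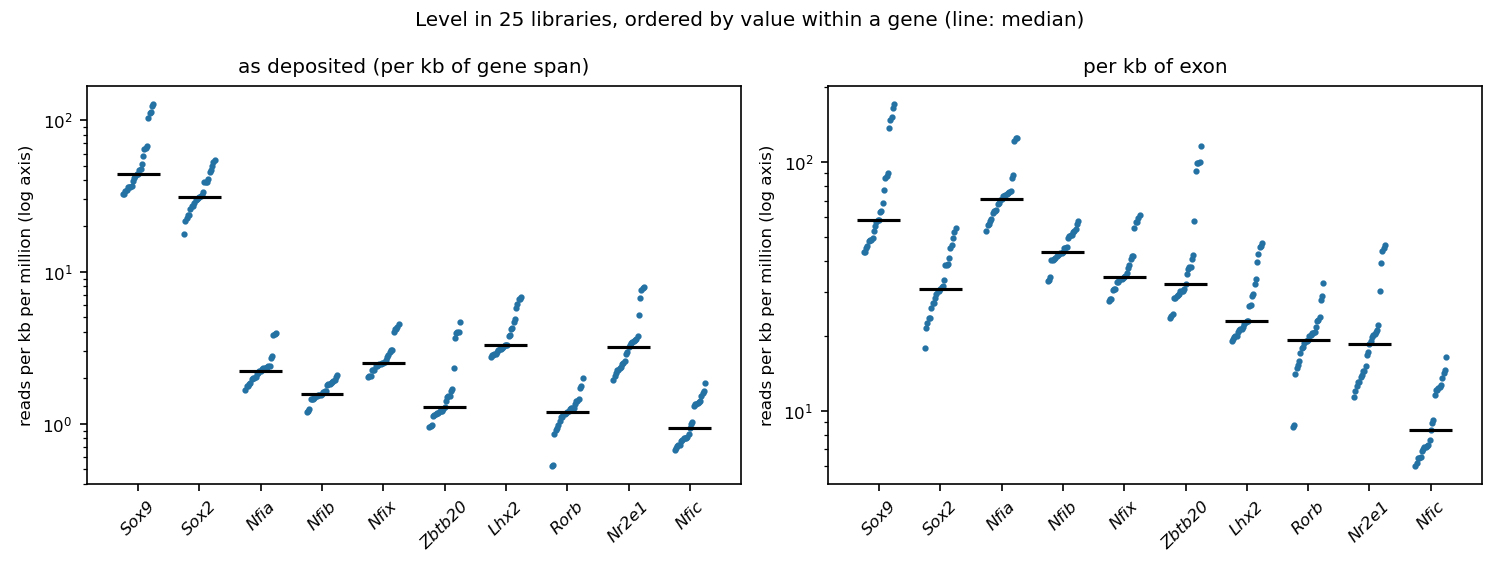
Level of the 9 members and of Nfic, the remaining member of the nuclear factor I family, in each of the 25 libraries (points, in order of value) with the median (line), on log axes. Left, deposited RPKM; right, the same reads per kilobase of exon, where Nfia moves from a median of 2.23 to 70.9.

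Between the lowest and the highest library, Zbtb20 varied the most, 4.94-fold, and Nfib the least, 1.75-fold. Sox9 spanned 3.93-fold, Nr2e1 4.12-fold, Rorb 3.82-fold and Sox2 3.05-fold. Lhx2, Nfia and Nfix spanned 2.49-fold, 2.36-fold and 2.23-fold. The EGFR inhibitor and HBEGF withdrawal groups had the 2 highest means of the 9 groups for 7 members (Sox9, Sox2, Nfia, Nfix, Zbtb20, Lhx2 and Nr2e1). For Sox9 and Nfia these 2 groups did not overlap each other or any other group. For Sox2, Nfix, Zbtb20 and Nr2e1 they overlapped each other and stood clear of the next group. For Lhx2 the withdrawal group overlapped the HBEGF group. For Nfib and Rorb, day 2 and EGFR DMSO had the highest means and HBEGF withdrawal the lowest. The EGFR inhibitor group ranked 7 of 9 for Nfib, just above day 14, and 3 of 9 for Rorb.

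**Figure D2:**
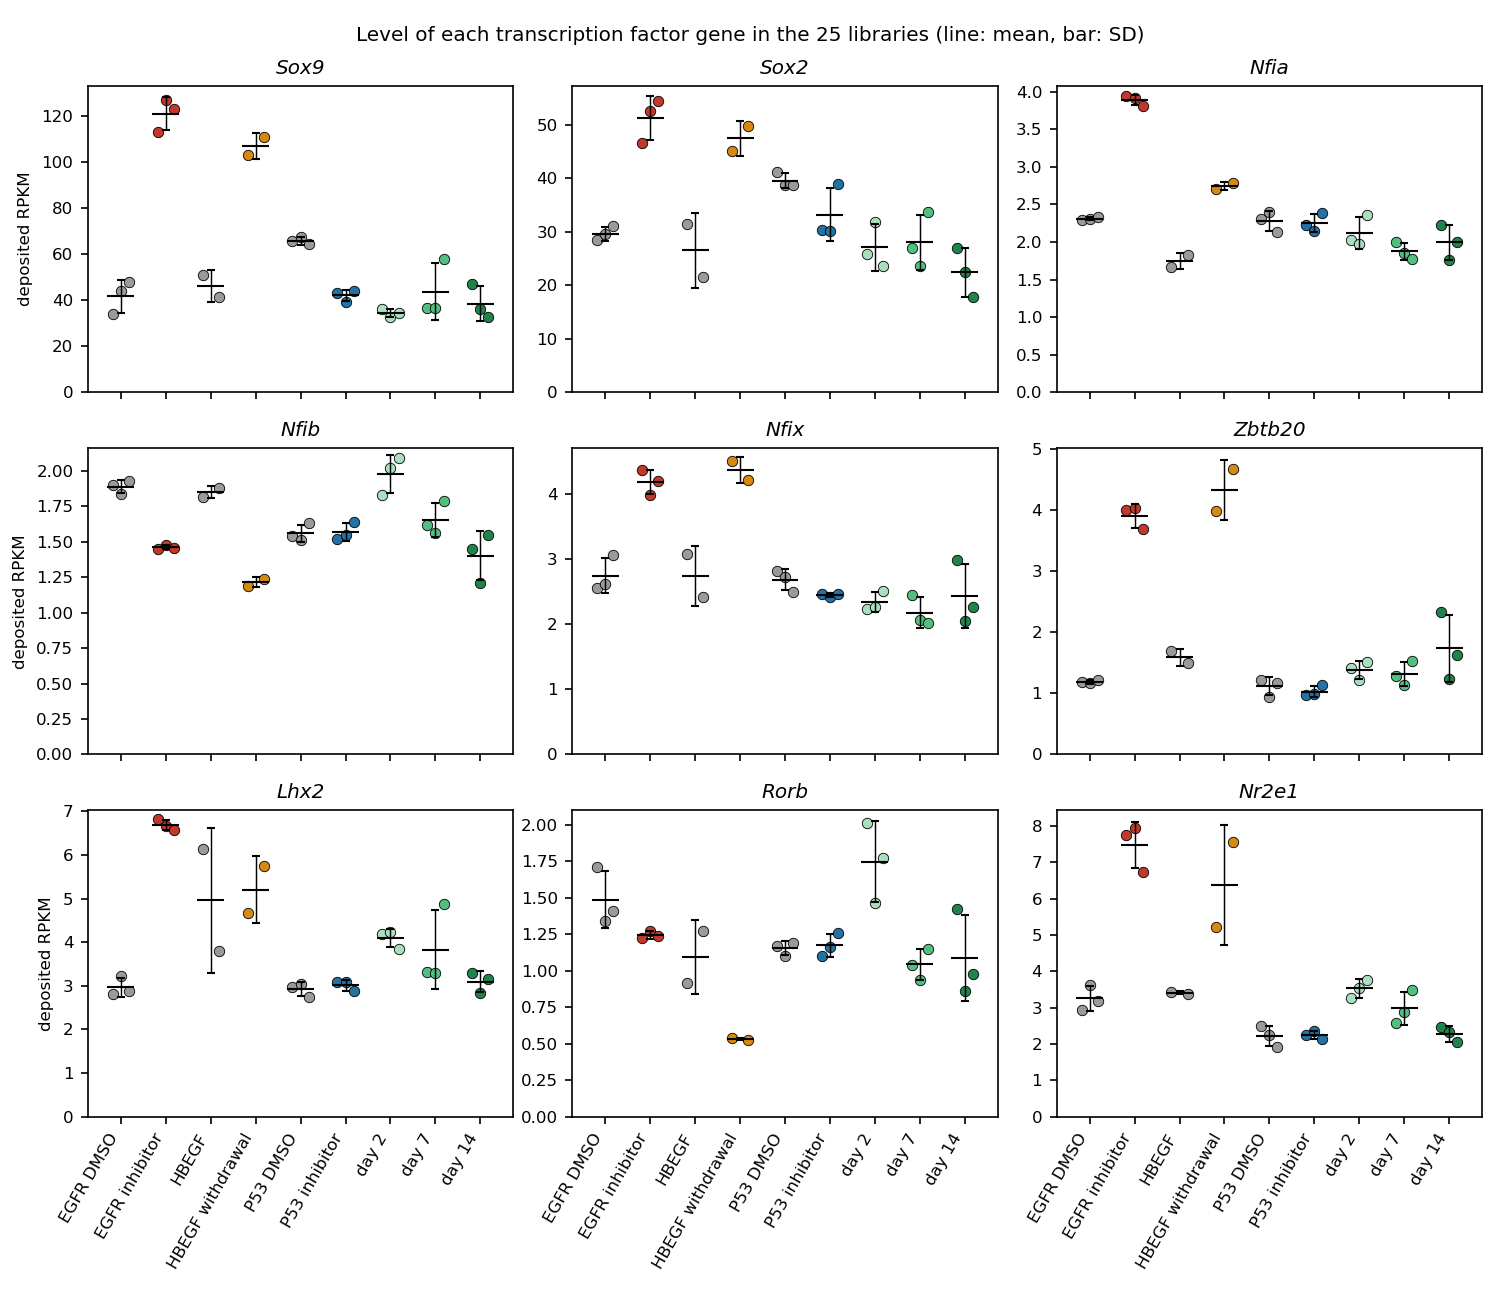
Deposited RPKM of the 9 members in all 25 libraries, 1 panel a gene and 1 point a library, with the mean (line) and SD (bar) of each group. Sox9 lies between 113 and 127 in the EGFR inhibitor libraries and between 33.8 and 47.7 in their DMSO controls.

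The libraries held 4016227 to 9698532 counted reads (median 6107978), of which 13.4 to 31.4% came from mitochondrial genes. Astrocyte markers were present in every group, and the oligodendrocyte precursor gene list had a summed level of 320 to 510 RPKM in all groups but those of the EGFR inhibitor and HBEGF withdrawal. A sum of deposited RPKM gives most weight to its highest genes. It does not give the share of a cell type, and sums of different lists cannot be compared. Some libraries stood apart in the summed level of 7 dividing cell markers: HBEGF replicate 1 had 61.4 RPKM against 146 in replicate 2, and day 7 replicate 3 had 23.4 against 87.5 and 91.8. The same 2 libraries stood apart in 8 neuron markers, with 4.64 against 1.74 RPKM and 4.2 against 0.921 and 1.13. Changes were tested with limma on log2(RPKM + 0.1) over 18014 genes, with Benjamini-Hochberg adjustment over all of them, and a gene was called when its adjusted p was below 0.05. Log2 changes are given ± SE, with the treatment or later day first. The scale understates the change of genes with low values.

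The first comparison asked what differs when EGFR signalling is blocked. Of the 9 members, 7 rose with the EGFR inhibitor, Nfib fell and Rorb was not called. In this comparison 35.1% of all tested genes were called (15.6% higher and 19.6% lower). The median log2 change was 0.78 over the 9 members and 0.00 over all tested genes. In all 9 members the 3 inhibitor libraries did not overlap the 3 DMSO libraries, as was the case for 47.2% of tested genes.

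Zbtb20 had the largest change. It was 1.18, 1.16 and 1.21 RPKM in the DMSO libraries and 3.99, 4.03 and 3.68 with the inhibitor. Every inhibitor library was thus above every control, 3.29-fold higher on average (log2 change 1.64 ± 0.16, limma adjusted p = 9.67e-07). Sox9 was 33.8, 43.8 and 47.7 RPKM in the controls and 113, 127 and 123 with the inhibitor. The spread among its controls was wider than at Zbtb20, and the groups again lay far apart (2.91-fold, log2 change 1.55 ± 0.16, limma adjusted p = 1.76e-06). Sox2 rose less, from 28.4, 29.5 and 31 to 46.6, 52.6 and 54.5 RPKM (1.73-fold, log2 change 0.78 ± 0.17, limma adjusted p = 0.00129).

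The nuclear factor I genes parted. Nfia was 2.29, 2.31 and 2.33 RPKM in the controls and 3.94, 3.92 and 3.81 with the inhibitor, a 1.68-fold rise with hardly any spread among replicates (log2 change 0.73 ± 0.09, limma adjusted p = 6.73e-06). Nfix rose 1.52-fold, from 2.56, 2.62 and 3.06 to 4.36, 3.99 and 4.2 RPKM (log2 change 0.59 ± 0.12, limma adjusted p = 0.000839). Nfib was 1.9, 1.84 and 1.93 RPKM in the controls and 1.45, 1.48 and 1.46 with the inhibitor. It was the only member that fell, by 0.35 ± 0.08 on the log2 scale (limma adjusted p = 0.00311). Nfic, the fourth gene of the family, rose from 0.984 ± 0.0435 to 1.39 ± 0.0362 RPKM (SD, n = 3; log2 change 0.46 ± 0.11, limma adjusted p = 0.00248).

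Both regulators known for holding progenitors rose. Lhx2 was 2.81, 3.22 and 2.88 RPKM in the controls and 6.82, 6.66 and 6.58 with the inhibitor (2.25-fold, log2 change 1.15 ± 0.15, limma adjusted p = 1.53e-05). Nr2e1 was 2.95, 3.63 and 3.18 against 7.76, 7.94 and 6.75 (2.3-fold, log2 change 1.18 ± 0.14, limma adjusted p = 4.09e-06). Rorb was 1.71, 1.34 and 1.41 RPKM in the controls and 1.22, 1.27 and 1.24 with the inhibitor. Its groups did not overlap, but the log2 change of -0.23 had an interval of -0.56 to 0.09 (limma adjusted p = 0.275), so a fall or a small rise both lie within the error. Leaving out any 1 of the 6 libraries left the 7 higher and 1 lower members called.

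**Figure D3:**
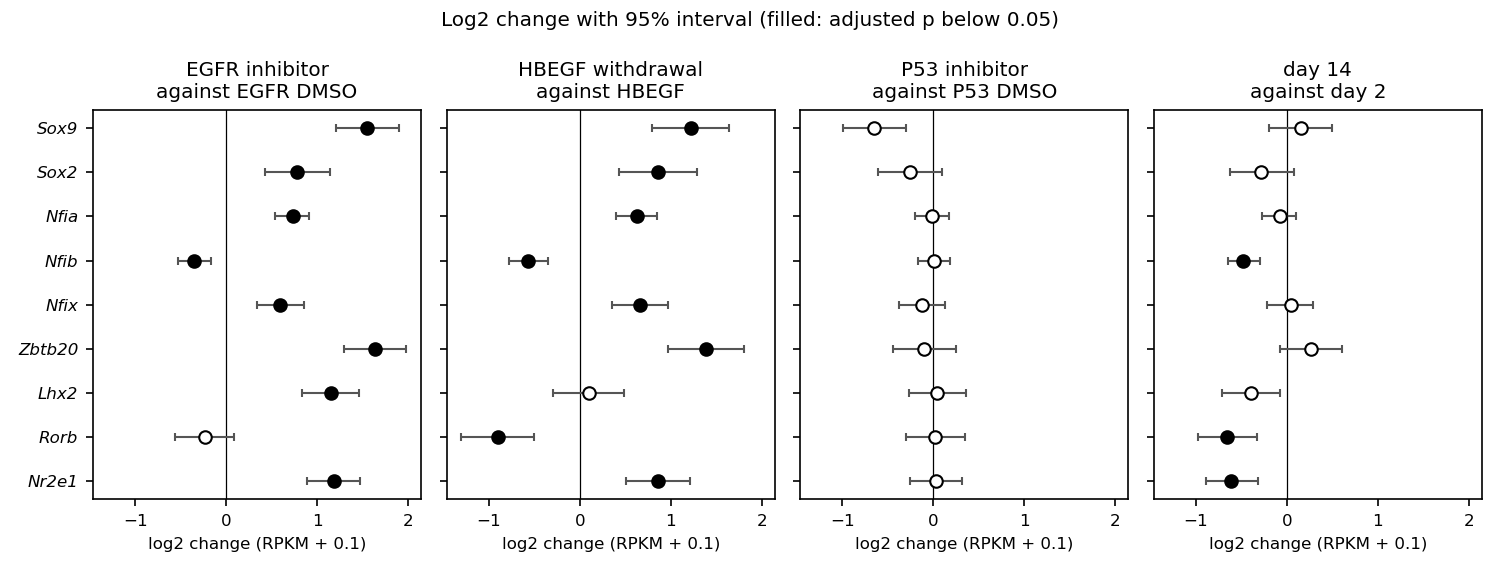
Log2 change of RPKM + 0.1 with its 95% interval for the 9 members in 4 comparisons. Filled points have a limma adjusted p below 0.05, which holds for 8 members with the EGFR inhibitor, 8 after HBEGF withdrawal, 0 with the P53 inhibitor and 3 between days 2 and 14.

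Other cell states moved with these genes. With the inhibitor, Dusp6, a phosphatase gene induced by ERK signalling, fell from 25.5 ± 8.81 to 1.57 ± 0.257 RPKM (SD, n = 3; limma adjusted p = 1.83e-07). The summed level of the dividing cell markers was 121 to 131 RPKM in the controls and 23.5 to 26.8 with the inhibitor, and all 7 genes fell. The 6 oligodendrocyte precursor markers summed to 322 to 418 in the controls and 113 to 137 with the inhibitor (3 fell, among them Olig1 and Olig2, and Gpr17 rose). Their median log2 change was only -0.34, and Sox10, at a mean of 1.54 RPKM in the controls and 2.76 with the inhibitor, was not called. For other cell types no count of risers is given, since part of their genes passed the filter only through inhibitor or withdrawal libraries. The sum of 5 ependymal markers was 2.94 to 3.38 RPKM in the controls and 17.8 to 24 with the inhibitor, and that of 8 neuron markers 0.846 to 0.926 and 4.45 to 5.67. The 11 microglia markers summed to 0.433 to 0.873 and 2.26 to 6.26, with Tmem119 at 0 in both groups. Pericyte markers (5 genes, Kcnj8 at 0) summed to 2.28 to 3.62 and 3.96 to 5.41, and 7 oligodendrocyte markers to 3.56 to 5.4 and 6.77 to 7.21. The part of these cell types in the members' changes was not tested. Mitochondrial genes held 20.4 to 20.9% of the reads in the controls and 24.1 to 27.5% with the inhibitor, and all 8 member calls held with scaling without mitochondrial genes. In bulk RNA, a change in the share of cells of a type and a change in RNA per cell cannot be told apart.

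Withdrawal of HBEGF asked a related question by removing a ligand of EGFR, in 2 libraries a group. Of the 9 members, 6 rose (Sox9, Sox2, Nfia, Nfix, Zbtb20 and Nr2e1), Nfib and Rorb fell and Lhx2 was not called. Among all tested genes 28.8% were called (9.35% higher and 19.4% lower). The 4 libraries fell into groups without overlap for 8 of the 9 members and for 54.1% of tested genes. The median log2 change was 0.66 over the members and -0.11 over all tested genes, and median-of-ratios scaling brought the latter to 0.00. Higher genes were 32.5% of those called, and 49.8% with that scaling. The calls rest on the spread shared by the 9 groups: with these 4 libraries fitted alone, limma called 0 of 18014 genes (4772 at an unadjusted p below 0.05) and all 8 member calls were lost, with adjusted p from 0.0792 at Zbtb20 to 0.166 at Sox2.

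Zbtb20 again changed the most, from 1.69 and 1.49 RPKM with HBEGF to 3.98 and 4.67 without it (2.72-fold, log2 change 1.39 ± 0.20, limma adjusted p = 5.51e-05). Sox9 went from 51 and 41.2 to 103 and 111 RPKM (2.32-fold, log2 change 1.22 ± 0.20, limma adjusted p = 0.000193). Neither pair overlapped the other. Sox2 was 31.4 and 21.6 with HBEGF and 45.1 and 49.8 without it (log2 change 0.86 ± 0.21, limma adjusted p = 0.00396), and without HBEGF replicate 2 its change was 0.59 with an adjusted p of 0.0857 (0.000504 to 0.166 over the alternatives).

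In the nuclear factor I family, Nfia rose from 1.67 and 1.82 to 2.71 and 2.78 RPKM (1.57-fold, log2 change 0.63 ± 0.11, limma adjusted p = 0.000278). Nfix rose from 3.07 and 2.41 to 4.51 and 4.22 (log2 change 0.66 ± 0.15, limma adjusted p = 0.00235). Leaving out HBEGF replicate 2 ended that call (0.49, adjusted p = 0.0521, and 0.000256 to 0.147 over the alternatives). Nfib fell from 1.82 and 1.88 to 1.19 and 1.24 RPKM (1.52-fold lower, log2 change -0.57 ± 0.10, limma adjusted p = 0.00041). Thus Nfib took the opposite direction to Nfia and Nfix here too, while Nfic, at 1.44 ± 0.202 with HBEGF and 1.67 ± 0.235 without it (SD, n = 2), was not called (limma adjusted p = 0.272).

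Of the nuclear receptors, Nr2e1 rose from 3.44 and 3.38 to 5.22 and 7.56 RPKM (log2 change 0.86 ± 0.17, limma adjusted p = 0.000726). Rorb fell from 0.914 and 1.27 to 0.538 and 0.526, its lowest levels among the 25 libraries (2.05-fold lower, log2 change -0.90 ± 0.19, limma adjusted p = 0.00154). Lhx2 was 6.13 and 3.79 with HBEGF and 4.66 and 5.75 without it. These pairs overlapped, and the log2 change of 0.10 had an interval of -0.29 to 0.49 (limma adjusted p = 0.757). It was -0.24 without HBEGF replicate 2, the value at 3.79, and 0.44 without replicate 1.

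Marker sums are given in replicate order. After withdrawal the dividing cell sum went from 61.4 and 146 to 21.2 and 19.3 RPKM (all 7 genes fell), and the oligodendrocyte precursor sum from 418 and 391 to 92.5 and 98.7 (3 of 6 fell). The median log2 change of these 6 genes was -0.57, and Sox10 was not called (log2 change 0.38). The ependymal sum was 6.25 and 4.46 with HBEGF and 35.7 and 39.5 without it, and the microglia sum 0.0433 and 0.278 against 13.3 and 29, with Tmem119 at 0. The neuron sum was 4.64 and 1.74 with HBEGF and 5.23 and 4.43 without it, and limma called none of its tested genes, Tubb3, Dcx and Gad2. Pericyte markers (Kcnj8 and Abcc9 at 0) summed to 3.46 to 4.46 and 12.5 to 19, and oligodendrocyte markers to 8.8 to 18.1 and 27.6 to 29.9. The part of these cell types in the members' changes was not tested. Mitochondrial genes held 19.1 and 20.3% of the reads with HBEGF and 31.4 and 29.9% without it, and the 8 member calls held with scaling without mitochondrial genes.

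The EGFR inhibitor and withdrawal experiments share no library, so the difference of their log2 changes was tested in the same fit, where 1.53% of all tested genes were called (1.11% larger for the inhibitor and 0.422% smaller). The exposures were unlike, since HBEGF was withdrawn on the day the cells were prepared and the inhibitor was added on day 2. Lhx2 was called, with a change 1.05 ± 0.24 larger for the inhibitor than for withdrawal (interval 0.54 to 1.55, limma adjusted p = 0.0359). The call was lost in 10 of 19 alternatives, among them leaving out EGFR DMSO replicate 1 or 3, any 1 EGFR inhibitor library, HBEGF replicate 1 or HBEGF withdrawal replicate 1. Without HBEGF replicate 1 this difference was 0.71 with an adjusted p of 0.155, and over all alternatives the adjusted p ran from 0.00489 to 0.155. For the other 8 members the difference was not called. Its interval was -0.21 to 0.88 at Sox9, -0.29 to 0.79 at Zbtb20, -0.19 to 0.39 at Nfia and -0.06 to 0.50 at Nfib. Rorb came nearest, at 0.67 with an interval of 0.15 to 1.18 (limma adjusted p = 0.192).

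Nfia and Nfib were also compared by their ratio, which within a library does not depend on scaling. The size of the ratio rests on the exon lengths, but its log2 change between groups does not. Per kilobase of exon, Nfia stood at 1.38, 1.44 and 1.38 times Nfib in the EGFR DMSO libraries and at 3.12, 3.04 and 2.98 times with the inhibitor. The groups did not overlap (log2 ratio difference 1.12, exact permutation test, two-sided p = 0.1, the smallest that 3 against 3 allows). After HBEGF withdrawal the ratio was 2.6 and 2.57, against 1.05 and 1.11 with HBEGF (difference 1.26, exact permutation p = 0.333, the smallest for 2 against 2). It was 1.68 ± 0.167 in P53 DMSO and 1.64 ± 0.0478 with the P53 inhibitor (SD, n = 3; exact permutation p = 0.8). On days 2, 7 and 14 it was 1.22 ± 0.097, 1.3 ± 0.147 and 1.64 ± 0.145 (SD, n = 3), with no overlap between days 2 and 14 (difference 0.42, exact permutation p = 0.1) and an overlap between days 2 and 7 (p = 0.5, exact permutation test). Days 7 and 14 did not overlap either (difference 0.33, exact permutation p = 0.1). Adjusted over the 6 comparisons by Benjamini-Hochberg, the lowest of these exact permutation p-values is 0.2.

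**Figure D4:**
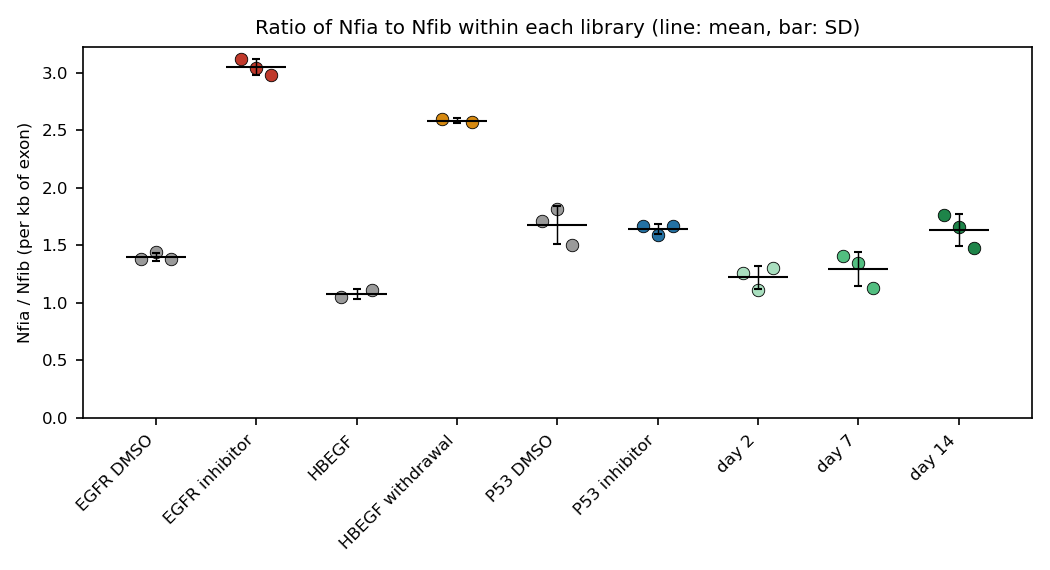
Ratio of Nfia to Nfib per kilobase of exon in each library (points), with group mean (line) and SD (bar). The EGFR inhibitor libraries (2.98 to 3.12) and withdrawal libraries (2.57 and 2.6) lie above all others, which reach 1.82.

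As shares of the summed exon-length level of the 4 family genes, Nfia made up 42.7 ± 1.07% in EGFR DMSO and 52.9 ± 0.737% with the inhibitor (SD, n = 3). Nfib went from 30.5 ± 0.557% to 17.4 ± 0.387%. Nfix moved less, from 21.7 ± 1.48% to 24.4 ± 0.872%, and Nfic was at 5.12 ± 0.233% and 5.32 ± 0.161%. The sum itself was 172 ± 5.36 in the controls and 234 ± 3.14 with the inhibitor. With HBEGF, Nfia and Nfib held nearly equal shares, 35.3 ± 3.02% and 32.7 ± 1.45%, and without it 44.6 ± 1.34% and 17.3 ± 0.682% (SD, n = 2). All these shares assume that the counted reads came from exons.

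P53 is a stress-activated transcription factor. Cdkn1a, a target gene that P53 activates, was 16.3 ± 1.41 RPKM in DMSO and 24.6 ± 1.6 in the libraries labelled P53 inhibitor (SD, n = 3; log2 change 0.59, limma adjusted p = 0.706). The groups did not overlap and the direction is opposite to that of lower P53 activity, but the change was not called. Cdkn1a was also lower with the EGFR inhibitor (log2 change -1.31) and on day 14 than on day 2 (-1.01), but not after withdrawal (0.14). This gene thus gives no sign that P53 was inhibited and cannot settle it either way. The values below are those of libraries with that label. In them 0 members were called, against 0.117% of all tested genes (21 genes, 0.0278% higher and 0.0888% lower). The median log2 change was -0.02 over the members and -0.01 over all tested genes. Sox9 came nearest to a call: it was 65.7, 67.6 and 64.2 RPKM in the DMSO libraries and 42.9, 39.4 and 43.8 with the inhibitor. The groups did not overlap, which held for 19.1% of tested genes and for 2 members, Sox9 and Nfix. The log2 change of Sox9 was -0.65 with an interval of -0.99 to -0.30 and did not pass adjustment (limma adjusted p = 0.157). It passed with this experiment fitted alone (0.0399), with array weights (0.0111), with voom on recovered reads (0.0261) and with log2(CPM + 1) (0.0492), with a range over all alternatives of 0.0111 to 0.471. The Sox9 mean in P53 DMSO was 65.8 RPKM. It was 46.1 with HBEGF, 43.7 on day 7, 41.7 in EGFR DMSO, 38.5 on day 14 and 34.4 on day 2. The P53 inhibitor mean of 42 lay among these lower values, and why the P53 DMSO control was higher was not tested.

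The other members were not called with the P53 inhibitor either, with log2 changes from -0.26 at Sox2 to 0.04 at Lhx2. Sox2 was 39.5 ± 1.41 RPKM in DMSO and 33.2 ± 4.95 with the inhibitor (SD, n = 3; log2 change -0.26, interval -0.61 to 0.09), and Nfix 2.69 ± 0.166 and 2.45 ± 0.0356 (-0.13, interval -0.38 to 0.13). Narrow intervals were found at Nfia (-0.20 to 0.17) and Nfib (-0.17 to 0.18), and wider ones at Zbtb20 (-0.44 to 0.25), Lhx2 (-0.27 to 0.36), Rorb (-0.30 to 0.35) and Nr2e1 (-0.26 to 0.31). The dividing cell sum was 73.6 to 78.4 in DMSO and 98 to 100 with the inhibitor, with 0 of 7 genes called.

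Time in culture was the last question. Between days 2 and 14, 3 members fell (Rorb, Nr2e1 and Nfib) and 0 rose, with 19.6% of all tested genes called (5.28% higher and 14.3% lower). The groups did not overlap for 4 of the 9 members and for 31.3% of tested genes. The median log2 change was -0.28 over the members and -0.15 over all tested genes. Median-of-ratios scaling brought the latter to 0.00 and raised the higher genes from 26.9 to 52.1% of those called, so changes are best read against that shift. The dividing cell sum was 111 to 156 RPKM on day 2 and 52.1 to 88.1 on day 14 (Mcm2, Mcm5 and Pcna fell, 3 of 7), and the astrocyte marker sum 41.1 to 65.1 and 91.9 to 168 (6 of 8 rose). Of the oligodendrocyte precursor markers, Gpr17 and Sox10 fell, and their part and that of dividing cells was not tested. Mitochondrial genes held 13.4 to 17.9% of the reads on day 2 and 22.5 to 26.6% on day 14, and the 3 member calls held with scaling without mitochondrial genes.

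Nfib was 1.83, 2.02 and 2.09 RPKM on day 2, 1.62, 1.56 and 1.79 on day 7 and 1.45, 1.21 and 1.55 on day 14. All 3 day 14 values were below all day 2 values (1.41-fold lower, log2 change -0.48 ± 0.08, limma adjusted p = 0.000631), and the call was lost with the time course fitted alone (0.0563, the highest over the alternatives, the lowest being 2.33e-05).

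Rorb was 2.01, 1.46 and 1.77 RPKM on day 2, 1.04, 0.937 and 1.15 on day 7 and 1.42, 0.86 and 0.976 on day 14. It was lower on both later days without overlap, with log2 changes of -0.66 ± 0.15 for day 14 (limma adjusted p = 0.00581) and -0.68 ± 0.15 for day 7 (limma adjusted p = 0.00868). The day 14 call was lost with median-of-ratios scaling (-0.49, adjusted p = 0.0539) and with the time course fitted alone (0.0864), and the day 7 call in the latter (0.143). Over the alternatives the adjusted p was 0.000306 to 0.0864 for day 14 and 0.000669 to 0.143 for day 7. Nr2e1 was 3.27, 3.55 and 3.77 on day 2, 2.59, 2.87 and 3.49 on day 7 and 2.48, 2.33 and 2.05 on day 14. Days 2 and 14 did not overlap (1.54-fold lower, log2 change -0.61 ± 0.14, limma adjusted p = 0.00409).

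Lhx2 was 4.18, 4.24 and 3.85 RPKM on day 2, 3.31, 3.3 and 4.88 on day 7 and 3.3, 2.84 and 3.15 on day 14. Days 2 and 14 did not overlap, and the log2 change of -0.39 (interval -0.71 to -0.08) just missed the threshold (limma adjusted p = 0.0778, and 0.0393, 0.0387 and 0.043 with array weights, voom and log2(CPM + 1), and up to 0.362 over the alternatives). Zbtb20 on day 14 spread from 1.24 to 2.33 RPKM, against 1.22 to 1.51 on day 2 (log2 change 0.27, interval -0.08 to 0.61). Leaving out day 14 replicate 2, the library at 1.24, gave 0.47 with an adjusted p of 0.0374, while leaving out replicate 1, at 2.33, gave 0.04 with an adjusted p of 0.917. These are the lowest and highest adjusted p over the alternatives. Sox9 (34.4 ± 1.91 on day 2 and 38.5 ± 7.48 RPKM on day 14, SD, n = 3; interval -0.20 to 0.49), Sox2 (-0.63 to 0.08) and Nfix (-0.22 to 0.29) were not called. Nfia was not called either (-0.27 to 0.10), and its change of -0.08 became 0.09 with median-of-ratios scaling.

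Between days 2 and 7, Rorb was the only member called, against 10.7% of all tested genes (3.8% higher and 6.94% lower). The groups did not overlap for 3 of the 9 members (Nfib and Rorb lower, Sox9 higher) and for 26% of tested genes. Higher genes were 35.3% of those called, and 50.4% with median-of-ratios scaling. Nfib had a log2 change of -0.24 (limma adjusted p = 0.0699), which passed with voom (0.0303) and log2(CPM + 1) (0.0335) and ran from 0.0303 to 0.317 over the alternatives. Sox9 was 36.8, 36.4 and 57.9 RPKM on day 7, where the highest value was that of replicate 3, the library with a low dividing cell sum and a high neuron marker sum (log2 change from day 2 of 0.31, interval -0.03 to 0.66, and 0.09 without that library). Between days 7 and 14, 0 members were called by limma, and 0 with voom, against 0.0666% of all tested genes (0.0167% higher and 0.05% lower). Groups did not overlap for 3 members, all lower on day 14 (Nfib, Lhx2 and Nr2e1), and for 12.9% of tested genes. Nfib and Nr2e1, with log2 changes of -0.23 and -0.36, were the 2 members at an unadjusted limma p below 0.05 (adjusted p = 0.338 and 0.363).

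Genes reported as targets of Sox9 or the nuclear factor I proteins were followed in a list of 25, of which 24 were tested. With the EGFR inhibitor 13 rose and 5 fell, with a median log2 change of 0.75. Over all tested genes 15.6% were called higher and 19.6% lower. Gja1, the gap junction protein connexin 43, rose from 4.19 ± 0.393 to 19.9 ± 1.83 RPKM (SD, n = 3; limma adjusted p = 3.66e-06), and Mlc1, a membrane protein of astrocyte endfeet, from 5.74 ± 0.241 to 12.8 ± 1 (limma adjusted p = 2.69e-06). Fabp7, the brain lipid-binding protein of radial glia, fell from 1094 ± 98 to 359 ± 8.49 (limma adjusted p = 2.6e-07), and Acsbg1, an acyl-CoA synthetase, from 2.31 ± 0.219 to 0.502 ± 0.142 (limma adjusted p = 4.03e-06).

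After HBEGF withdrawal 10 of the 24 rose and 5 fell (median 0.72), against 9.35% and 19.4% of all tested genes. With the P53 inhibitor 0 were called (median 0.00), against 0.117% of all. Between days 2 and 14 the counts for targets and factors went in opposite directions, a difference that was not tested as such: 19 of the 24 targets rose and 0 fell (median 1.07), while 0 of the 9 factors rose and 3 fell (median -0.28). Over all tested genes 5.28% rose and 14.3% fell. Apoe, the main lipid carrier protein of astrocytes, rose from 19.3 ± 8.72 to 434 ± 195 RPKM (SD, n = 3; limma adjusted p = 3.8e-08), Aqp4, the water channel, from 2.09 ± 1.44 to 18.9 ± 7.84 (limma adjusted p = 4.13e-06) and Mlc1 from 4.17 ± 0.479 to 15.5 ± 2.77 (limma adjusted p = 3.8e-08). By day 7, 16 of the 24 had risen and 0 had fallen (median 0.81), against 3.8% and 6.94% of all tested genes. The target list holds all 8 astrocyte markers, so its changes cannot be told apart from theirs in any of these comparisons. With the EGFR inhibitor 5 of the 8 rose and 1 fell. Their sum was 76.5 to 93.5 RPKM in the controls and 251 to 258 with the inhibitor. After withdrawal 4 rose and 2 fell, and the sum was 72.9 to 76.6 RPKM with HBEGF and 173 to 189 without it.

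**Figure D5:**
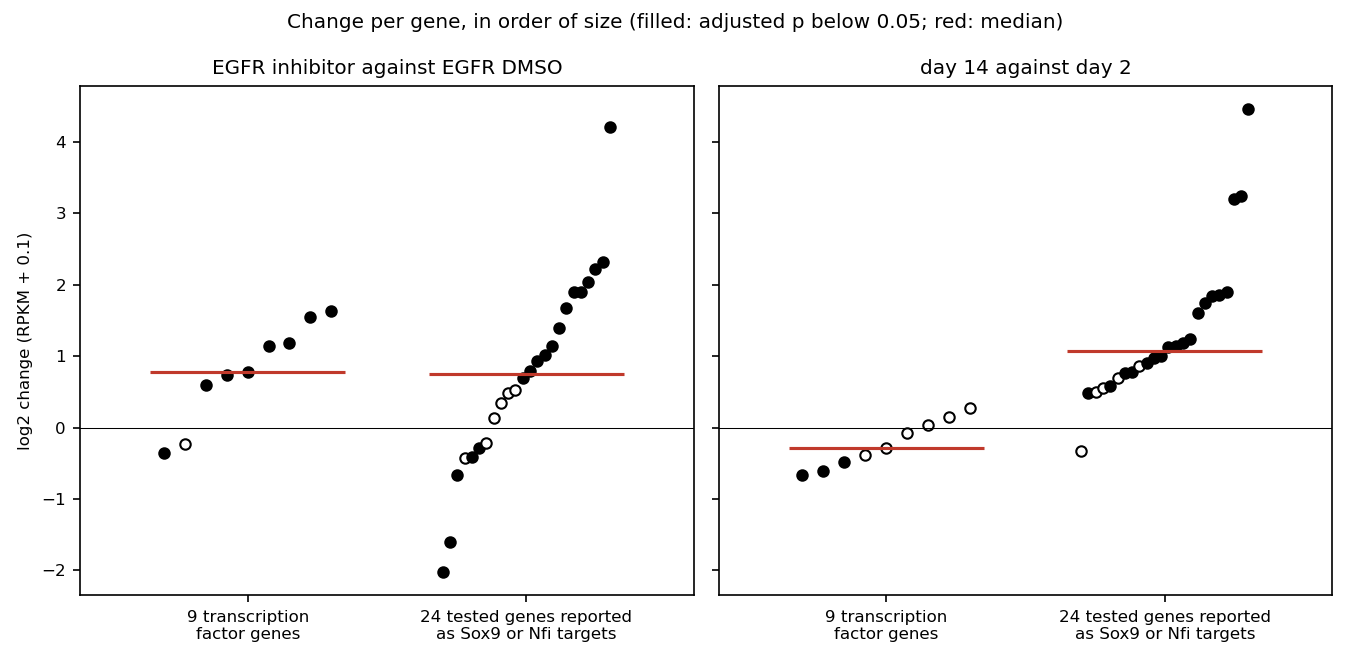
Log2 change of each of the 9 factors and of the 24 tested target genes, in order of size, with the median (red line), for the EGFR inhibitor (left) and day 14 against day 2 (right). Filled points have a limma adjusted p below 0.05. The medians are 0.78 and 0.75 with the inhibitor and -0.28 and 1.07 over time.

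A wider list of 55 other transcription factors of the astrocyte lineage, 44 of them tested, gave the surroundings of the 9. With the EGFR inhibitor 22 rose and 7 fell (median 0.42), against 15.6% and 19.6% of all tested genes. After withdrawal 18 rose and 7 fell (median 0.46), against 9.35% and 19.4%. Of these risers, 2 and 4 would not have passed the filter without the inhibitor and withdrawal libraries, which leaves 20 and 14. Pax6, a radial glial homeobox gene, rose from 1.7 ± 0.203 to 4.37 ± 0.0772 RPKM with the inhibitor (SD, n = 3; limma adjusted p = 2.42e-07). Etv5 and Etv4, ETS factors induced by receptor tyrosine kinase signalling, fell from 4.87 ± 0.104 to 1.12 ± 0.301 (limma adjusted p = 2.11e-08) and from 1.78 ± 0.0668 to 0.292 ± 0.171 (limma adjusted p = 3.13e-07). Between days 2 and 14, 7 rose and 18 fell (median -0.23), against 5.28% and 14.3% of all tested genes. Prrx1, a homeobox gene, fell from 1.82 ± 0.345 to 0.547 ± 0.0856 RPKM (SD, n = 3; limma adjusted p = 3.92e-07).

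Close relatives of Sox9 and Sox2 were read beside them. Sox1 rose with the EGFR inhibitor, from 22.5 ± 2.72 to 42.1 ± 3.69 RPKM (SD, n = 3; limma adjusted p = 0.000323), and Sox3 fell, from 5.35 ± 0.688 to 3.07 ± 1.03 (limma adjusted p = 0.0211). Sox8, which belongs with Sox9 to the SOXE group, was 48.3 ± 11.8 in the controls and 44.8 ± 1.6 with the inhibitor (log2 change -0.08, limma adjusted p = 0.816), but rose from 22.2 ± 0.634 on day 2 to 51.8 ± 2.6 on day 7 (limma adjusted p = 0.000914). Nfic fell over time, from 1.45 ± 0.154 on day 2 to 0.777 ± 0.0447 on day 14 (SD, n = 3; limma adjusted p = 4.65e-05).

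Neurogenic transcription factors, which drive neuron formation, were a list of 19 with 11 tested. With the EGFR inhibitor 7 rose and Tcf12 fell, against 15.6% of all tested genes called higher and 19.6% lower. One of the 7, Eomes, would not have passed the filter without the inhibitor and withdrawal libraries, which leaves 6. Dlx1 rose from 0.18 ± 0.0736 to 19.4 ± 1.15 RPKM (SD, n = 3; limma adjusted p = 7.78e-05) and Neurog2 from 0.115 ± 0.0153 to 4.9 ± 0.384 (limma adjusted p = 6.62e-07). After withdrawal 5 rose (3 without Eomes and Neurod6, which needed those libraries to pass the filter) and Tcf12 fell. Of all tested genes, 9.35% rose and 19.4% fell. Insm1 went from 2.89 ± 0.954 to 18.7 ± 1.91 RPKM (SD, n = 2, limma adjusted p = 0.00038). Between days 2 and 14, 0 rose and 4 fell, against 5.28% and 14.3% of all tested genes. The neuron marker sum moved beside these genes with the inhibitor, as given above, and its part was not tested.

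For each member, the genes with the most similar pattern over the 9 group means were found among 7307 genes, by the root mean square difference of centred log2 values. The closest match was Celf1 to Nfib, at 0.03, against a range of 0.66 between the highest and lowest group mean of Nfib. Others were Trim2 to Nr2e1 (0.10, range 1.71), Zbtb7a to Nfix (0.10, range 0.98), Cdkn1b to Sox2 (0.11, range 1.20), Fsd1l to Lhx2 (0.12, range 1.17), Dtna to Zbtb20 (0.13, range 1.97) and Wbp1l to Nfia (0.14, range 1.11). Rorb was most like Elovl2 (0.15, range 1.53) and Sox9 most like Prr36 (0.18, range 1.82), the poorest of these matches in absolute size. Among the members themselves, Nfia and Nfix were each other's nearest (0.19), as were Nfib and Rorb (0.26) and Lhx2 and Nr2e1 (0.28). Nearest does not mean alike for Nfib and Rorb. The root mean square of the centred Nfib profile itself was 0.20, less than its difference of 0.26 from Rorb. These are descriptions over 9 group means.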

How the data were processed

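The authors deposited a table of RPKM values for 54429 genes in 25 libraries. Per the submitters' processing notes, STAR, HTSeq, edgeR and limma were used with GRCm38, with no versions, annotation or strand setting given in these sources. Total RNA was amplified with Ovation RNA-seq V2 and made into libraries with NEBNext Ultra, per the labels' protocols. RPKM times gene span (GENCODE M21, 98.7% of entries matched) summed to 999128 to 1002611 in each library. Exon length gave 377054 to 519436, and the authors were therefore taken to have used the span. Reads recovered in this way were whole, within 0.1, for 98.9 to 99.3% of values of up to 20 reads. Depth was 4016227 to 9698532 reads.

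Genes with at least 0.5 RPKM in at least 2 libraries (18014, among them all 9 members) entered 1 limma fit of log2(RPKM + 0.1), with a mean for each of the 9 groups, 16 residual degrees of freedom and robust empirical Bayes with a trend. Adjusted p-values are Benjamini-Hochberg per comparison, called below 0.05. The ratio of Nfia to Nfib was tested by exact permutation, two-sided, in 6 comparisons. The members and gene lists were chosen with earlier results of these data known, and the list of reported targets was written from general knowledge. Genes were named as follows: all members; up to 4 per direction of the lineage and neurogenic lists by log2 change; up to 4 targets by p; treatment checks; and the 3 genes most similar to each member, of which the first is printed. Not all genes picked are printed, and the results for 2 of them are not reported here. Relatives of the members (Nfic, Sox1, Sox3, Sox8), and Tcf12, Eomes, Neurod6 and the single marker genes, are named outside that rule, after their values were seen. Alternatives were another pseudocount, other filters, 2 scalings, each experiment alone, a replicate block, array weights, voom, log2(CPM + 1) and leaving out each library. Added after the data were seen were the deposited length and left-out libraries for the ratio. The code was tested on simulated data. Software was limma 3.58.1 in R 4.3.3, and scipy 1.17.1, numpy 2.4.6, matplotlib 3.10.9 and pandas 2.3.3 in Python 3.11.15.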

Additional observations from a re-analysis of the deposited data

Results flagged for a closer look

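The change of Lhx2 passed the test for a difference between the EGFR inhibitor and HBEGF withdrawal, a call that was lost in 10 of 19 alternatives. Its log2 change with the EGFR inhibitor was 1.15 ± 0.15 and after HBEGF withdrawal 0.10 ± 0.19, a difference of 1.05 ± 0.24 (limma adjusted p = 0.0359, and 0.00489 to 0.155 over the alternatives). All 3 inhibitor libraries lay above all 3 controls, while the 2 withdrawal libraries lay between the 2 HBEGF libraries. The summed dividing cell markers were 61.4 RPKM in the HBEGF library with Lhx2 at 6.13 and 146 in the one at 3.79, the neuron markers 4.64 and 1.74, and their part was not tested.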

How the results depend on the processing

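With the EGFR inhibitor all 8 member calls held in every alternative that tested them, while the 8 withdrawal calls were lost with that experiment fitted alone and Sox2 and Nfix also without HBEGF replicate 2. A filter of 5 RPKM left 4 of the 9 members tested. It lowered the count of called genes from 6328 to 2030 with the EGFR inhibitor, 5182 to 1875 for withdrawal, 3537 to 1241 for day 14 against 2, 1935 to 778 for day 7 against 2, 21 to 11 with the P53 inhibitor and 276 to 107 for the difference of the inhibitor and withdrawal changes, with fewer genes tested. Fitted alone, the counts were 0 for withdrawal, 55 for the P53 inhibitor, 1284 for day 14 against 2, 160 for day 7 against 2 and 1 for day 14 against 7. The last count was 12 in the full fit, 29 with a pseudocount of 1, 29 with no filter, 6 with scaling without mitochondrial genes, 60 with voom and 81 with log2(CPM + 1). The difference count was 558 with no filter, 176 with array weights, 455 with voom and 526 with log2(CPM + 1), and the P53 count was 290, 93 and 66 in these last 3 fits. Leaving out 1 library gave 5314 to 5563 for the EGFR inhibitor, 3585 to 4432 for withdrawal, 9 to 16 for the P53 inhibitor, 2202 to 3342 for day 14 against 2, 886 to 1654 for day 7 against 2, 0 to 21 for day 14 against 7 (0 without day 7 replicate 3, with 0 members called) and 143 to 306 for the difference. Day 2 replicate 2 (886 and 2294 for days 7 and 14), day 14 replicate 1 (2202) and day 7 replicate 3 (1247) moved the time course counts by over 1.5 times. The cause was not tested.

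Libraries with the same replicate number had nearly uncorrelated deviations from their group means (17 same-number pairs, correlation -0.053 to 0.047). A correlation over all genes cannot exclude a shared preparation, and the origin of the replicates is not given. With a replicate block the counts were 9 for the P53 inhibitor, 1238 for day 7 against 2, 2 for day 14 against 7 and 89 for the difference. Lhx2 in the difference had an adjusted p of 0.129 with the block, 0.0586 with median-of-ratios scaling and 0.065 with scaling without mitochondrial genes.

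Signs turned only for log2 changes that were not called. With median-of-ratios scaling and scaling without mitochondrial genes, Nfia became 0.02 and 0.01 with the P53 inhibitor, 0.09 and 0.06 for day 14 against 2 and -0.03 and -0.02 for the difference, and Zbtb20 became 0.00 and 0.01 for day 7 against 2. With array weights, Nfib became -0.01 with the P53 inhibitor, Nfix -0.01 for day 14 against 2, Sox2 -0.02 for day 7 against 2 and Rorb -0.03 for day 14 against 7. Leaving out 1 library, the P53 inhibitor changes ranged from -0.06 to 0.02 at Nfia, -0.02 to 0.04 at Nfib, -0.03 to 0.07 at Rorb, -0.00 to 0.08 at Lhx2 and -0.07 to 0.11 at Nr2e1. Those of withdrawal ranged from -0.24 to 0.44 at Lhx2, those of day 14 against 2 from -0.00 to 0.26 at Sox9 and -0.11 to 0.15 at Nfix, and those of day 7 against 2 from -0.17 to 0.02 at Zbtb20 and -0.09 to 0.17 at Sox2. Day 14 against 7 ranged from -0.16 to 0.17 at Rorb, -0.01 to 0.25 at Nfix and -0.31 to 0.06 at Sox9, and the difference from -0.34 to 0.19 at Sox2 and -0.24 to 0.10 at Nfix.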
